A study of Mus musculus with 18 samples.

Results

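The 10 genes described here are immediate early genes, which cells transcribe within minutes of a stimulus without new protein synthesis: Fos, Fosb, Jun, Junb, Jund, Egr1, Egr3, Ier2, Nr4a1 and Arc. They were taken by gene symbol from 37620 annotated genes, each symbol matched 1 gene, and all 10 passed the filter on low counts that left 18627 features for testing. RNA was counted in 3 fractions of cells sorted from the lateral cortex of C57BL/6 mouse embryos at embryonic day 14.5. All fractions came from animals with reporters at Btg2 and Tubb3 (genotype label Btg2GFP/Tubb3GFP; the sample titles write RFP for the Btg2 fractions). Neuron are cells positive for the Tubb3 reporter, DP (differentiating progenitors) are cells positive for the Btg2 reporter, and PP (proliferating progenitors) are cells negative for it. Each fraction had 3 libraries, made from more than 3 embryos, pooled across litters, with names that give library numbers in the files: L224, L357 and L395 for Neuron, L223, L356 and L394 for DP, and L222, L355 and L393 for PP.

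Fos, Fosb, Jun, Junb and Jund encode leucine zipper proteins that pair to form the transcription factor AP-1. Egr1 and Egr3 encode zinc finger transcription factors, Nr4a1 an orphan nuclear receptor that acts as a transcription factor, Ier2 a nuclear protein and Arc a cytoskeletal protein of synaptic plasticity. Growth factors and MAP kinases switch such genes on through serum response factor and its partners, and calcium and cyclic AMP through CREB. In cortical neurons they are widely read as marks of recent activity, and enzymatic dissociation of tissue, which all of these cells underwent with papain before sorting, is known to induce them. No undissociated tissue was analysed here, so the part of dissociation in the levels was not tested. The cells were sorted at 4°C. Btg2, whose reporter drew the gate between DP and PP, is itself counted among immediate early genes, so its own level is not independent of the sort.

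Counts per library, both runs added, were 42840710 to 55935128 in Neuron, 39836073 to 50535080 in DP and 34337209 to 43520336 in PP. Levels are CPM, read counts relative to the library total after TMM scaling. The sort genes were in the order of the labels: Tubb3 averaged 2384 ± 261 CPM in Neuron, 581 ± 98.9 CPM in DP and 87.9 ± 29.5 CPM in PP, and Btg2 169 ± 22.2, 888 ± 251 and 445 ± 67.6 CPM in the same order (SD, n = 3 each). Markers of radial glia summed to at most 407 CPM in Neuron, 2630 to 3768 CPM in DP and 5541 to 6465 CPM in PP. In the same order, those of intermediate progenitors summed to 799 to 922, 3291 to 4676 and 1480 to 1504 CPM. Those of neurons summed to 10980 to 11837, 2404 to 3235 and 420.2 to 638 CPM. The intermediate progenitor list holds Btg2 and the neuron list holds Tubb3, so these sums are not independent of the sort. Blood was uneven: 11 red blood cell markers summed to 14 to 16.4 CPM in Neuron, 18.6 to 125 CPM in DP and 8372 to 15349 CPM in PP. Pericyte markers, a list that holds Notch3 of radial glia too, summed to 6.65 to 7.13 CPM in Neuron, a median of 191 and at most 252 CPM in DP and 445 to 558 CPM in PP. Notch3 alone made up most of this in DP (238, 145 and 182 CPM in L223, L356 and L394). It did so in PP too (411, 426 and 492 CPM in L222, L355 and L393). Endothelial markers reached 36.6 CPM at most and microglia markers 32.5 CPM at most in any library. Meningeal fibroblast markers summed to 48.6 to 66.9 CPM in Neuron, 143 CPM or more in each DP library and 74.5 to 191 CPM in PP, but Zic1 made up most of this in Neuron and DP. Without Zic1 the other 10 summed to 2.08 to 3.12 CPM in Neuron, 7.69 to 14.3 CPM in DP and 22.7 to 126 CPM in PP. Foxd1 of that list was at 0 in every Neuron library. These cells can express immediate early genes, and their part in the differences below was not tested. In sorted bulk RNA, fewer cells with a transcript and less of it per cell cannot be told apart.

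Promoters are shown for 4 members that moved differently between DP and PP: Fos and Junb, which were higher in DP, and Jun and Nr4a1, which were lower. The lines give the 250 bases before the annotated start, 5′ to 3′ on the gene's strand, from RefSeq (GRCm38.p6), whereas gene positions further on are those of the deposited files (mm9). Capitals mark any match to a searched motif on either strand. Windows were matched for 6 of the 10 members (Fos, Fosb, Jun, Junb, Jund and Nr4a1). Egr1, Egr3, Ier2 and Arc are named only.
Fos, chr12:85473640-85473889, plus strand: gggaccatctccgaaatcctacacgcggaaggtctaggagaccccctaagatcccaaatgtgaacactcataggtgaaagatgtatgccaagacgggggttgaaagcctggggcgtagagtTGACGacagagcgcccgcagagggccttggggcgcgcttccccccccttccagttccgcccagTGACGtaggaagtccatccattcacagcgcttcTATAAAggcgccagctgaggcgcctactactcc
Junb, chr8:84978749-84978998, minus strand: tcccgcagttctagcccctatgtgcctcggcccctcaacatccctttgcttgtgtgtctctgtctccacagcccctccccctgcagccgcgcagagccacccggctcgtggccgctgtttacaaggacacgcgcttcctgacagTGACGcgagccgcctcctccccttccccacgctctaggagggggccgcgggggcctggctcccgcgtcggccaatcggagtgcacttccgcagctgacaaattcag
Jun, chr4:95052223-95052472, minus strand: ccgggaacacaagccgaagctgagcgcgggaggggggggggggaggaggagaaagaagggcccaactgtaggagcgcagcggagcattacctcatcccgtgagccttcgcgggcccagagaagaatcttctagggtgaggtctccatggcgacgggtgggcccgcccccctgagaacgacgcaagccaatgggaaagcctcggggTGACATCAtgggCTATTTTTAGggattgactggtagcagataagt
Nr4a1, chr15:101266596-101266845, plus strand: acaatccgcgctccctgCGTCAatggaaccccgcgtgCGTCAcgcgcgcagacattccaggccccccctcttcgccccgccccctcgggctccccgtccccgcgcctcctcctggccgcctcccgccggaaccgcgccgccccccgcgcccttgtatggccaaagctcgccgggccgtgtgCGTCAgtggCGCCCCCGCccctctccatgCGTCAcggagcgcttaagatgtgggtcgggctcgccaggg

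The core of the CREB site, TGACG, was found at 4 places in the Nr4a1 window, always as CGTCA on the strand shown, and at 2 places in that of Fos (-129 to -125 and -66 to -62, counted from the start). It stood at 1 place each in the windows of Fosb and Junb, and it occurs in 17.8% of all 32851 windows. The full palindrome TGACGTCA, which contains TGACG, was in none of the 6 windows and is in 1.55% of all. The Jun window held TGACATCA at -45 to -38, known as a site for Jun itself (2.93% of all windows). It also held the consensus site of MEF2 factors at -33 to -24 (2.92% of all windows). The Fos window held TATAAA at -33 to -28 (12.4% of all). GCGNGGGCG, the Egr site, was in the Fosb and Nr4a1 windows (4.7% of all). TGANTCA, the AP-1 site (6.75% of all), and the CArG box of serum response factor (1.47% of all) were in none of the 6 windows. Bases outside the windows were not searched, so a motif absent from a window can still lie further upstream of that gene. The matches found are descriptions of letters and not of binding.

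The question of the first comparison is how progenitors that have begun to differentiate differ from those that proliferate. Compared with PP, DP had more RNA of Fos, Junb and Ier2 and less of Jun, Nr4a1 and Arc. Fos changed most upward, to 51.4 ± 16.1 CPM in DP against 22.3 ± 2.72 CPM in PP, and Jun most downward, to 339.8 ± 41.7 CPM in DP against 734 ± 98.0 CPM in PP. The 10 genes did not all move the same way: 3 were higher and 3 lower in DP. A member was called at an adjusted p below 0.05, and every adjusted p here is from the quasi-likelihood test of edgeR, with Benjamini-Hochberg adjustment over all features. Over all features 41.4% were called (21.3% higher, 20.2% lower), and the members' median log2 fold change was -0.08 beside -0.02 for all features. The libraries of DP and PP did not overlap for 6 members, 3 in each direction, and for 49.7% of all features (25.1% higher, 24.7% lower).

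Neurons, compared with DP, had less RNA of Arc, Fosb, Fos, Jun, Ier2 and Egr1 and more of Egr3, Junb and Nr4a1. Arc fell most, to 1.66 ± 0.314 CPM in Neuron against 19.3 ± 4.10 CPM in DP, and Egr3 changed most upward, to 1.12 ± 0.267 CPM in Neuron against 0.142 ± 0.0263 CPM in DP. This makes 3 members higher and 6 lower, where 67.3% of all features were called (33.1% higher, 34.2% lower). The members' median log2 fold change was -0.66, beside -0.04 over all features. Jund was the member without a call. Where all libraries of the groups were apart, 8 members (3 higher, 5 lower) stood beside 72.4% of all features (35.5% higher, 36.9% lower).

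Set against PP, Neuron had 2 members higher (Junb and Egr3) and 4 lower (Arc, Fosb, Jun and Ier2), where 75.3% of all features were called (36.7% higher, 38.6% lower). The members' median log2 fold change was -0.26, beside -0.04 over all features. Libraries did not overlap for 7 members (2 higher, 5 lower) and for 78.6% of all features (38.5% higher, 40.1% lower). The 3 comparisons share their libraries, so their values are set side by side and not as independent results. When libraries were scaled by their totals alone, the median of all features moved to -0.10, -0.26 and -0.35 in DP against PP, Neuron against DP and Neuron against PP. The share of calls that were higher then was 39.6%, 35.7% and 35% in these comparisons, beside 51.3%, 49.1% and 48.7% with TMM scaling.

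**Figure D1:**
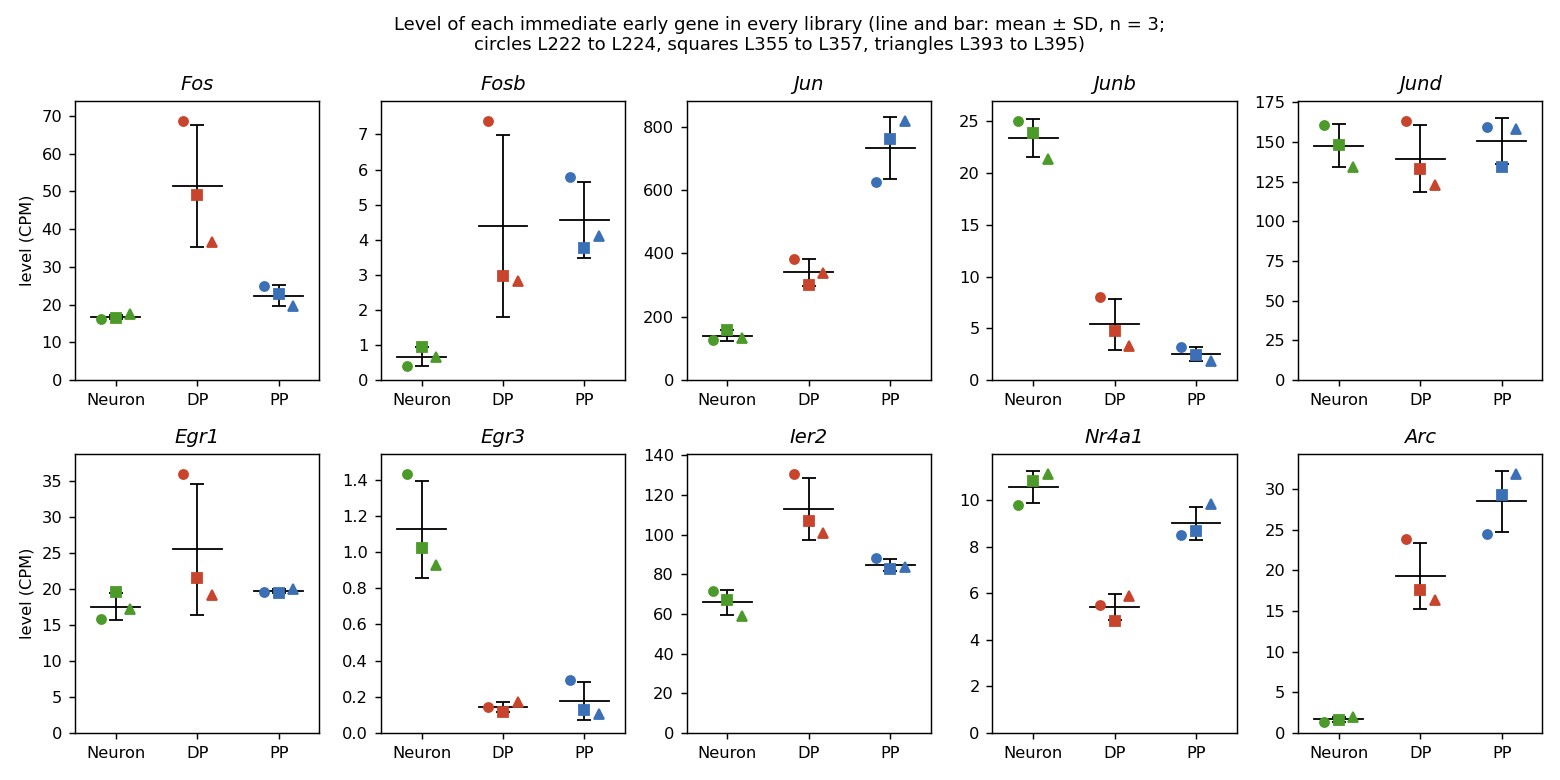
Level of each of the 10 genes in CPM (vertical axes from 0) in every library of Neuron, DP and PP, with the mean and SD of 3 libraries. Fos and Ier2 stand highest in DP, Junb and Egr3 in Neuron, and Jun and Arc are lowest in Neuron and highest in PP.

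**Figure D2:**
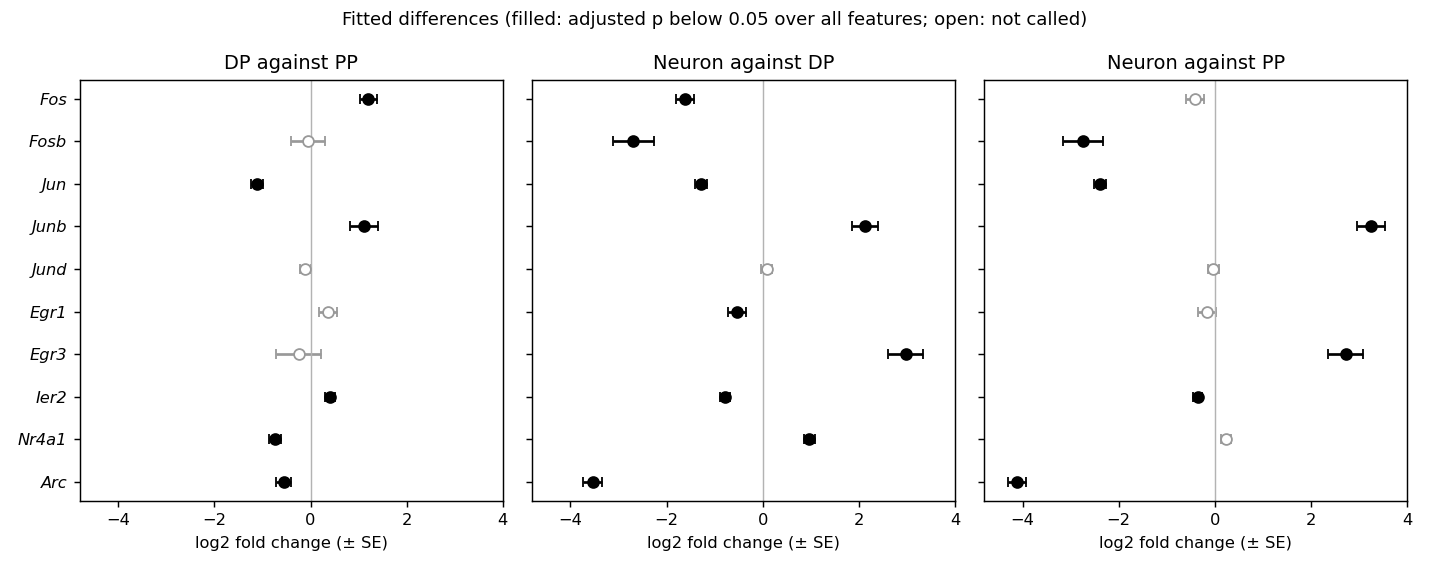
Fitted log2 fold change with its SE for each gene in DP against PP, Neuron against DP and Neuron against PP; filled points passed the threshold of adjusted p below 0.05. Jund lies within 0.11 of 0 in each comparison, and Arc reaches -3.54 in Neuron against DP and -4.11 in Neuron against PP.

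Fos (chromosome 12, 86814840 to 86818223, mm9) encodes the AP-1 partner that cannot pair with itself. It stood at 16.3, 16.4 and 17.4 CPM in Neuron (L224, L357 and L395), at 68.5 (L223), 49.1 (L356) and 36.6 (L394) CPM in DP, and at 24.9 (L222), 22.7 (L355) and 19.5 (L393) CPM in PP. Values below keep this order of libraries. The DP libraries lay above all others and were spread widely, while the Neuron libraries lay close together and below all PP libraries. In the fit Fos was 2.3-fold above PP in DP (log2 1.20 ± 0.18 SE, adjusted p = 0.000309). In Neuron it was 3.08-fold below DP (log2 -1.62 ± 0.19, adjusted p = 1.00e-05). Between Neuron and PP the difference of -0.42 ± 0.19 did not pass (adjusted p = 0.0587). It passed under 8 of 19 alternatives: with the sets of consecutive library numbers as a block (-0.41, adjusted p = 0.0318), and without PP library L393 (-0.50, adjusted p = 0.0478), DP library L223 (-0.40, adjusted p = 0.0134) or DP library L394 (-0.42, adjusted p = 0.0132), among others. The adjusted p ran from 0.00328 to 0.232.

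Fosb (chromosome 7, 19888070 to 19895394), the closest relative of Fos among the members, behaved otherwise. Its levels were 0.398, 0.935 and 0.67 CPM in Neuron, 7.37, 2.96 and 2.82 CPM in DP, and 5.8, 3.76 and 4.11 CPM in PP. DP and PP overlapped, with the DP library L223 above and the other DP libraries below all PP libraries, and each Neuron library lay below every progenitor library. Fosb was 6.47-fold below DP in Neuron (log2 -2.69 ± 0.42, adjusted p = 0.000137) and 6.71-fold below PP in Neuron (adjusted p = 9.33e-05). Between DP and PP no difference was detectable (log2 -0.05 ± 0.36, adjusted p = 0.922). Without library L223 that value was -0.63 ± 0.27 (adjusted p = 0.0883).

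Jun (chromosome 4, 94715725 to 94718913), the main partner of Fos in AP-1, had the highest level per kilobase of exon in both progenitor fractions. It had 127, 159 and 134 CPM in Neuron, 383, 299.7 and 337 CPM in DP, and 625, 759.7 and 816 CPM in PP. The 3 fractions did not overlap: Neuron was lowest, DP intermediate and PP highest. Jun was 2.16-fold below PP in DP (log2 -1.11 ± 0.12, adjusted p = 2.87e-05), 2.43-fold below DP in Neuron (adjusted p = 2.28e-06) and 5.24-fold below PP in Neuron (adjusted p = 7.90e-09). BC042782, annotated on the other strand, overlaps the Jun exon by 232 bases. BC042782 stood at 3.75 ± 0.137 CPM in Neuron, 10.1 ± 3.66 CPM in DP and 28.6 ± 6.02 CPM in PP.

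Junb (chromosome 8, 87500811 to 87502617), a Jun relative that activates fewer targets and can restrain Jun, ran the opposite way. Its levels were 25, 23.9 and 21.4 CPM in Neuron, 8.08, 4.79 and 3.26 CPM in DP, and 3.22, 2.43 and 1.87 CPM in PP. The lowest DP library lay just above the highest PP library, and the Neuron libraries lay far above both fractions. Junb was 2.16-fold above PP in DP (log2 1.11 ± 0.29, adjusted p = 0.0096), 4.36-fold above DP in Neuron (log2 2.13 ± 0.27, adjusted p = 2.20e-05) and 9.42-fold above PP in Neuron (adjusted p = 7.82e-07). Without DP library L223 the first of these was 0.72 ± 0.22 on the log2 scale (adjusted p = 0.0237), over a range of 0.000374 to 0.0384 for the adjusted p under all alternatives.

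Jund (chromosome 8, 73221638 to 73224515), the Jun relative that most cells make without a stimulus, was called in none of the 3 comparisons. It had 161, 148 and 134 CPM in Neuron, 163, 133 and 123 CPM in DP, and 159.7, 134 and 158 CPM in PP, with complete overlap of the fractions. The log2 differences were -0.11 ± 0.11 in DP against PP, 0.08 ± 0.11 in Neuron against DP and -0.03 ± 0.11 in Neuron against PP (adjusted p = 0.459, 0.528 and 0.823). A p that misses the threshold does not show that the fractions were alike. Scaled by library totals alone, the last of these was -0.34 and passed (adjusted p = 0.0122). Gm11175, annotated on the other strand wholly inside the Jund exon (543 bases), had 11.6 ± 0.96 CPM in Neuron, 16.4 ± 4.48 CPM in DP and 25.3 ± 5.10 CPM in PP. No source used here says how reads there were split between these genes.

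Egr1 (chromosome 18, 35019477 to 35024638), the zinc finger factor also called Zif268, had its highest level in a single DP library. Its levels were 15.8, 19.6 and 17.3 CPM in Neuron, 36, 21.5 and 19.2 CPM in DP, and 19.6, 19.5 and 20.1 CPM in PP. Library L223 stood above all others, and the other DP libraries lay within or close to the range of Neuron and PP. The difference between DP and PP did not pass (log2 0.37 ± 0.19, adjusted p = 0.145), though it did without DP library L394 (0.54, adjusted p = 0.0362). Neuron was 1.45-fold lower than DP (log2 -0.54 ± 0.19, adjusted p = 0.0273). This call did not hold when DP library L223 was left out (-0.21, adjusted p = 0.113), nor without Neuron library L224 (-0.46, adjusted p = 0.0899) or L395 (-0.52, adjusted p = 0.0697), nor without L222, L223 and L224 together (-0.13, adjusted p = 0.309). Over all alternatives its adjusted p ran from 0.00442 to 0.309. In the authors' deposited table Egr1 has log2 fold changes of 0.38 and -0.51 for DP against PP and Neuron against DP, and its p-values are empty.

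Egr3 (chromosome 14, 70477252 to 70479964), a relative of Egr1 induced by many of the same signals, was the scarcest member in both progenitor fractions. It had 61, 50 and 36 reads in Neuron (1.43, 1.02 and 0.927 CPM), 6, 6 and 7 reads in DP (0.141, 0.116 and 0.169 CPM), and 11, 6 and 5 reads in PP (0.295, 0.128 and 0.103 CPM). Every Neuron library lay above every progenitor library. Egr3 was 7.86-fold above DP in Neuron (log2 2.97 ± 0.37, adjusted p = 2.05e-05) and 6.59-fold above PP in Neuron (adjusted p = 2.79e-05). Between DP and PP no difference was detectable at this depth (log2 -0.25 ± 0.47, adjusted p = 0.707).

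Ier2 (chromosome 8, 87185230 to 87186751), an early response gene with a short single exon, followed the order of Fos with smaller steps. It had 71.7, 66.9 and 58.9 CPM in Neuron, 130.4, 107 and 101 CPM in DP, and 88.3, 82.4 and 83.5 CPM in PP. The fractions did not overlap. Ier2 was 1.33-fold above PP in DP (log2 0.41 ± 0.10, adjusted p = 0.0064) and 1.71-fold below DP in Neuron (log2 -0.78 ± 0.10, adjusted p = 2.97e-05). It was 1.29-fold below PP in Neuron (log2 -0.36 ± 0.10, adjusted p = 0.00632), a call that did not hold with single-read counts only (-0.27, adjusted p = 0.0613). The adjusted p under all alternatives lay between 4.31e-05 and 0.0613.

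Nr4a1 (chromosome 15, 101097277 to 101105223), also called Nur77, was lowest in the middle fraction. Its levels were 9.79, 10.8 and 11.1 CPM in Neuron, 5.51, 4.79 and 5.89 CPM in DP, and 8.51, 8.67 and 9.82 CPM in PP. Every DP library lay below all others, while Neuron and PP overlapped at 9.79 and 9.82 CPM. Nr4a1 was 1.67-fold below PP in DP (log2 -0.74 ± 0.12, adjusted p = 0.000415) and 1.96-fold above DP in Neuron (log2 0.97 ± 0.12, adjusted p = 1.60e-05). Between Neuron and PP it did not pass (log2 0.23 ± 0.11, adjusted p = 0.0898), but did with the sets of library numbers as a block (0.23, adjusted p = 0.0336) with single-read counts only (0.30, adjusted p = 0.0471) and without PP library L393 (0.31, adjusted p = 0.0453). With library totals alone the value turned to -0.08 (adjusted p = 0.562). Its adjusted p under all alternatives ran from 0.0336 to 0.562.

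Arc (chromosome 15, 74499513 to 74503000), whose protein moves AMPA receptors off the synapse in mature neurons, was found mainly in the progenitor fractions. It had 1.36, 1.63 and 1.98 CPM in Neuron, 23.9, 17.6 and 16.3 CPM in DP, and 24.4, 29.2 and 31.8 CPM in PP. The highest DP library (23.9 CPM) lay just below the lowest PP library (24.4 CPM), and the Neuron libraries lay far below both. Arc was 11.7-fold below DP in Neuron (log2 -3.54 ± 0.19, adjusted p = 1.31e-08) and 17.2-fold below PP in Neuron (adjusted p = 2.54e-09). Its 1.48-fold difference between DP, the lower, and PP (log2 -0.56 ± 0.16, adjusted p = 0.0132) was lost without PP library L393 (-0.46, adjusted p = 0.0569), DP library L356 (-0.50, adjusted p = 0.054) or DP library L394 (-0.45, adjusted p = 0.0552). Over all alternatives its adjusted p ran from 0.000489 to 0.0569.

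Read counts per kilobase of exon correct the levels of the members for length only. Differences between the runs by gene, and features that overlap the exons of Jun and Jund, were not corrected for. In Neuron the highest were Jund (51.3 CPM per kilobase), Jun (43.9) and Ier2 (43.3), whose libraries overlapped between neighbours. In DP they were Jun (107 CPM per kilobase), Ier2 (74.2) and Jund (48.4), and in PP Jun (230.0 CPM per kilobase), Ier2 (55.7) and Jund (52.3), where Ier2 and Jund overlapped. Fos came next in both progenitor fractions (21.9 CPM per kilobase in DP, 9.5 in PP, overlapping Arc at 9.31 in PP), and Junb in Neuron (13 CPM per kilobase, above Fos at 7.1). Egr3 was last in DP and PP (0.0967 and 0.119 CPM per kilobase), and Fosb in Neuron (0.178). Jun alone made up 29.6% to 35.4% of the members' summed CPM in Neuron, 46.4% to 52.2% in DP and 65.1% to 71.5% in PP. Without Jun the other members summed to 302, 289 and 263 CPM in Neuron and to 442, 341 and 308 CPM in DP, while 2 of the PP libraries, L355 and L393, had 303 and 328 CPM and L222 lay above both. L223 (442 CPM) stood above all other libraries.

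The libraries of DP differed among themselves more than those of the other fractions for Fos, Egr1, Junb and Fosb. Library L223 was the highest of DP for 8 of the 10 members (the exceptions were Egr3 and Nr4a1) and L394 the lowest for 7, while over all features L223 was the highest for 36.3% and L394 the lowest for 31.1%. The ratio of the highest to the lowest DP library was 2.61 for Fosb, 2.48 for Junb and 1.87 each for Fos and Egr1. In Neuron this ratio was 2.35 for Fosb, 1.17 for Junb, 1.07 for Fos and 1.25 for Egr1, and in PP 1.54, 1.72, 1.28 and 1.03 for the same genes. Fosb, with few reads, thus spread in Neuron nearly as widely as in DP. For 5 members (Fos, Fosb, Junb, Jund and Ier2) the PP library with the adjoining number, L222, was also the highest of PP. In all, L222 was the highest of PP for 6 members and the lowest for 3, and L393 was the highest for 4. Over all features L222 and L393 were each the highest of PP for 35.4%. L223 differed in its markers too. Radial glia markers summed to 3768 CPM in L223, against 2678 and 2630 CPM in L356 and L394. Red blood cell markers summed to 125 CPM against 18.6 and 21 CPM, and intermediate progenitor markers to 3291 CPM against 4436 and 4676 CPM. The last sum includes Btg2, which stood at 658 CPM against 850.2 and 1156 CPM, so these are not separate differences. It also includes Gadd45g, of the other immediate early genes, at 196 CPM against 350.3 and 416 CPM. Heat shock genes, which dissociation stress also induces, summed to 4524 CPM in L223, between 4685 CPM in L356 and 3996 CPM in L394, a sum of which Hsp90ab1 alone gave 2655, 2546 and 2211 CPM. By gene, 10 of the 16 were highest in L223, 4 in L356 and 2 in L394. The stress-inducible Hspa1a was among the 10 (0.447 CPM in L223, 0.368 and 0.265 CPM in L356 and L394). So were Hspa1b (1.06, 0.969 and 0.772 CPM), Dnajb1 (74.4, 72.8 and 61.8 CPM) and Bag3 (5.27, 3.1 and 4.73 CPM). The order for Hspa1a rests on few reads. Dnaja1 was lowest in L223 (102, 115 and 114 CPM), and Hspa8 was highest in L356 (561, 730.4 and 491 CPM). Dnajb1 and Hsp90ab1 were named after their values were seen. The part of these differences in the immediate early genes was not tested. Without L223 the higher levels in DP than in PP remained past the threshold for Fos (log2 0.96 ± 0.13, adjusted p = 0.000231) and Ier2 (0.31 ± 0.09, adjusted p = 0.0134) as for Junb above.

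**Figure D3:**
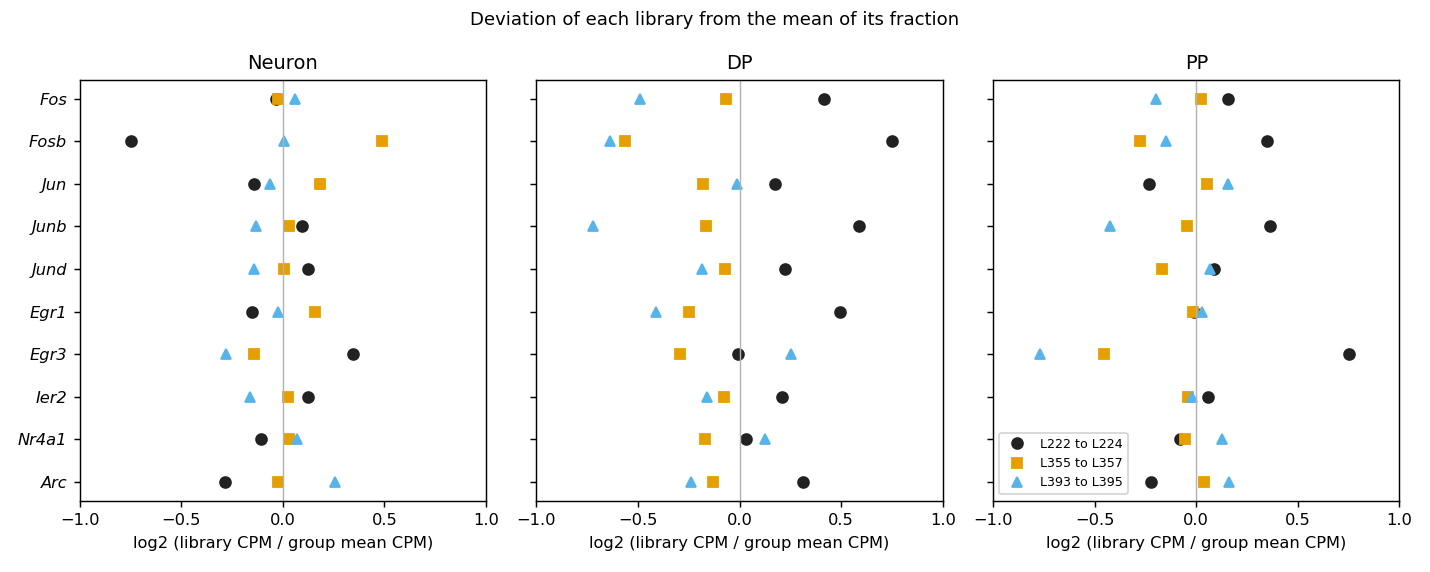
Each library's level relative to the mean of its fraction (log2 ratio, horizontal axes) for the 10 genes in Neuron, DP and PP; symbols mark the 3 sets of consecutive library numbers. Library L223 (black circles, middle panel) lies to the right for 8 of 10 genes in DP.

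Each library was sequenced in a single-read and a paired-end run. Before scaling, paired-end CPM exceeded single-read CPM by a median of 0.57 on the log2 scale for Jund, 0.52 for Ier2, 0.48 for Junb and 0.29 for Jun, with the lowest library still at 0.24 or more in each. Fos (median 0.02) and Egr1 (0.08) differed little between runs. In either run alone the same 6 members were called in DP against PP. There 6485 of 16316 features were called with single-read counts and 7174 of 17680 with paired-end counts. Egr3 did not pass the filter on low counts in the single-read fit.

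Other genes whose levels ran most like those of Fos, Egr1 and Jun were looked for among 18143 annotated genes, by the root mean square difference of log2 CPM centred on each gene's mean over the 9 libraries. Closest to Fos were Frmpd1 and Slit2 (0.23 each), Sdk2 (0.27), and Stat3 and a U6 gene (0.29 each). Frmpd1 averaged only 0.434 CPM in Neuron, 1.22 CPM in DP and 0.654 CPM in PP, and the U6 gene 1.13, 2.65 and 1.41 CPM. Slit2, a secreted guidance cue, averaged 37.5 CPM in Neuron, 110.4 CPM in DP and 56.4 CPM in PP, and Stat3, a transcription factor of cytokine signalling, 27.2, 81 and 27.8 CPM. Closest to Jun were Mov10 (0.09), Xylb (0.13), Hectd2 and Pcsk4 (0.14 each) and Epdr1 (0.15). Closest to Egr1 were Gm9939 (0.12), Spint2 (0.17), Mir3097 (0.19), and Ckap5 and Gm17460 (0.20 each). Mir3097 averaged only 0.32 CPM in Neuron, 0.411 CPM in DP and 0.343 CPM in PP. Of the other members, Ier2 ranked 15th from Egr1 (0.22), Jund 1522nd (0.31) and Fos 7801st (0.49). From Fos, Ier2 ranked 83rd (0.41), Egr1 278th (0.49) and Fosb 12553rd (1.05).

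Relatives outside the 10 genes were taken from lists. Of 12 AP-1 relatives and dimer partners, 11 were tested. In DP against PP 2 were higher and 4 lower, in Neuron against DP 4 higher and 4 lower, and in Neuron against PP 3 higher and 5 lower, with medians of -0.36, 0.20 and -0.40 on the log2 scale. Calls thus covered 54.5%, 72.7% and 72.7% of those tested, beside 41.4%, 67.3% and 75.3% of all features. Fosl2, a Fos relative, passed in both steps, with 43 ± 6.10 CPM in Neuron, 18.4 ± 1.80 CPM in DP and 11.5 ± 1.03 CPM in PP (adjusted p = 2.08e-06 in Neuron against DP and 0.000905 in DP against PP). Atf3, a stress-induced partner of Jun named after its values were seen, had 0.082 ± 0.0378 CPM in Neuron, 3.06 ± 1.47 CPM in DP and 2.93 ± 0.395 CPM in PP. It was 35.3-fold below DP in Neuron (adjusted p = 9.57e-07). The Neuron libraries held only 0.0468, 0.122 and 0.0773 CPM, so the size of this fold is imprecise. Maff, a small Maf protein, was 2.09-fold below PP in DP.

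Among 6 Egr and Nr4a relatives and Egr corepressors, 5 were tested: 2 were higher and 2 lower in DP against PP, 3 higher and 1 lower in Neuron against DP, and 2 higher and 1 lower in Neuron against PP (medians 0.69, 0.96 and 0.24). Calls thus covered 80%, 80% and 60% of those tested, beside 41.4%, 67.3% and 75.3% of all features. Nr4a3, a receptor of the Nr4a1 family, averaged 141 ± 13.2 CPM in Neuron, 5.99 ± 0.834 CPM in DP and 2.65 ± 0.897 CPM in PP (log2 4.56 in Neuron against DP, adjusted p = 1.67e-09). Nr4a2 went the other way in the same step, to 18.2 ± 0.661 CPM in Neuron against 56.6 ± 7.43 CPM in DP. Nab1, which binds Egr proteins and represses their targets, averaged 73.7 ± 3.45 CPM in Neuron, 29.1 ± 1.13 CPM in DP and 18.1 ± 0.729 CPM in PP, and passed in both steps.

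Of 33 other immediate early genes, Btg2 among them, 10 were higher and 7 lower in DP against PP, 14 higher and 9 lower in Neuron against DP, and 16 higher and 12 lower in Neuron against PP. These are 51.5%, 69.7% and 84.8% of the list, beside 41.4%, 67.3% and 75.3% of all features, and the medians were 0.10, 0.05 and 0.26 on the log2 scale. Highest by fold in DP against PP were Arl4d, a small GTPase of the ADP-ribosylation factor family (18.8 ± 5.45 CPM in DP, 2.31 ± 0.652 CPM in PP), Gadd45g, a growth arrest gene (321 ± 113 and 80.9 ± 24.0 CPM), and Ier5 (114 ± 4.86 and 50.4 ± 0.556 CPM). Lowest were the matricellular genes Ctgf and Cyr61, with Cyr61 at 1.19 ± 0.313 CPM in Neuron, 87.5 ± 21.6 CPM in DP and 211 ± 28.2 CPM in PP. In Neuron against DP the highest by fold were the kinase gene Plk2 (149.6 ± 5.13 CPM in Neuron, 4.64 ± 1.19 CPM in DP), Nfil3, a leucine zipper repressor (83.7 ± 1.41 and 8.28 ± 0.09 CPM), and Myc (69.2 ± 3.79 and 13.8 ± 2.68 CPM). Dusp1, a phosphatase that shuts off MAP kinases, was named after its values were seen. It had 99.4 ± 4.00 CPM in Neuron, 60.4 ± 9.25 CPM in DP and 50.6 ± 17.2 CPM in PP, and its difference between DP and PP did not pass (adjusted p = 0.332).

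Neuronal activity-regulated genes were higher in Neuron than in PP for most of the list. Of 12 tested, 5 were higher and 1 lower in DP against PP, 7 higher and 2 lower in Neuron against DP, and 10 higher and 1 lower in Neuron against PP (medians 0.23, 1.18 and 1.79). Calls thus covered 50%, 75% and 91.7% of those tested, beside 41.4%, 67.3% and 75.3% of all features. Homer1, a scaffold of the synapse, averaged 97.9 ± 4.81 CPM in Neuron and 38.3 ± 1.09 CPM in DP. The granule protein gene Scg2 had 6.53 ± 0.798 CPM in Neuron and 0.595 ± 0.262 CPM in DP. Npas4, a transcription factor induced by calcium in neurons and named after its values were seen, stood at 3.22 ± 0.202 CPM in Neuron, 0.689 ± 0.0611 CPM in DP and 0.279 ± 0.0841 CPM in PP. Gem, a small GTPase, was lower at each step, with 2 ± 0.221 CPM in Neuron, 16.8 ± 2.12 CPM in DP and 22.3 ± 2.71 CPM in PP. Nptx2, a secreted pentraxin, peaked in DP with 2.22 ± 0.206 CPM in Neuron, 9.66 ± 1.17 CPM in DP and 1.6 ± 0.137 CPM in PP.

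Genes upstream of the members split evenly in the first step, with 9 of 25 higher and 9 lower in DP against PP. In Neuron 15 were higher and 5 lower than in DP, and 18 higher and 6 lower than in PP (medians 0.09, 0.28 and 0.40 for the 3 comparisons). Calls thus covered 72%, 80% and 96% of the list, beside 41.4%, 67.3% and 75.3% of all features. Srf, serum response factor, had 146 ± 9.21 CPM in Neuron, 131 ± 13.7 CPM in DP and 119 ± 8.06 CPM in PP, and was higher in Neuron against PP (log2 0.30 ± 0.09, adjusted p = 0.00846). The steps between passed in neither case (adjusted p = 0.133 for Neuron against DP and 0.221 for DP against PP). Srf was named after its values were seen. Elk3, a partner of serum response factor, averaged 0.833 ± 0.245 CPM in Neuron, 25.6 ± 0.797 CPM in DP and 35.2 ± 4.31 CPM in PP. Mapk3, the kinase ERK1, rose to 102 ± 0.835 CPM in Neuron, against 60.1 ± 3.52 CPM in DP (adjusted p = 6.45e-07). Camk2b and Camk4, kinases of calcium signalling in neurons, had 182 ± 30.9 and 112 ± 8.88 CPM in Neuron, against 3.6 ± 0.643 and 2.24 ± 0.121 CPM in DP. Camk2a, of the same kinase family, had 13.7 ± 1.80 CPM in Neuron, 15.4 ± 2.81 CPM in DP and 72.6 ± 2.84 CPM in PP, and was 4.72-fold below PP in DP (adjusted p = 3.80e-07) and 5.31-fold below PP in Neuron (adjusted p = 9.03e-09).

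Of the heat shock genes, 1 of 15 tested was higher and 5 were lower for DP against PP, 1 higher and 5 lower in Neuron against DP, and 2 higher and 9 lower in Neuron against PP (medians -0.14, -0.10 and -0.33). Calls thus covered 40%, 40% and 73.3% of those tested, beside 41.4%, 67.3% and 75.3% of all features. Their summed level was 4147 to 4660 CPM in Neuron, 3996 to 4685 CPM in DP and 4156 to 4816 CPM in PP. Hspa1a and Hspa1b, the inducible Hsp70 genes, which are near-identical so that counting can split their reads, stood at 0.342 ± 0.0574 and 1.1 ± 0.188 CPM in Neuron, 0.36 ± 0.0913 and 0.933 ± 0.147 CPM in DP, and 0.549 ± 0.26 and 2.04 ± 0.617 CPM in PP. Both were named after their values were seen. Dnaja1 averaged 158 ± 4.36 CPM in Neuron, 110.2 ± 7.55 CPM in DP and 79.7 ± 3.18 CPM in PP, and passed in both steps (adjusted p = 0.00021 for DP against PP, 2.82e-05 for the step to Neuron). Bag3, a cochaperone, was lowest in Neuron (0.144 ± 0.0422 CPM, against 4.37 ± 1.13 CPM in DP and 12.1 ± 1.17 CPM in PP).

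**Figure D4:**
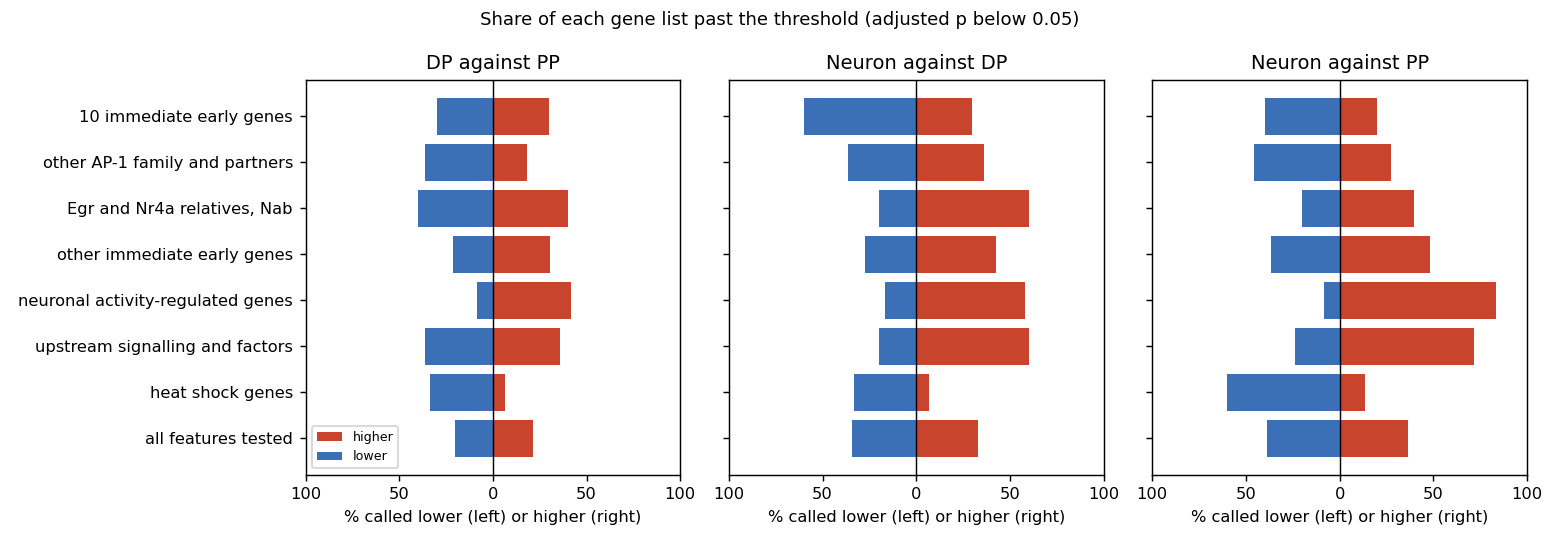
Share of each gene list called lower (bars to the left) or higher (bars to the right) in DP against PP, Neuron against DP and Neuron against PP, with all 18627 features in the bottom row. The 10 members have 6 lower and 3 higher in Neuron against DP, whereas the activity-regulated list has 2 lower and 7 higher.

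The authors' deposited results cover DP against PP and Neuron against DP, with the same sign for each member called there. Their scaled values are these same summed counts over a size factor, so the shared sign is not independent support. For DP against PP the authors list log2 fold changes of 1.20 for Fos, 0.42 for Ier2, -1.11 for Jun, -0.74 for Nr4a1 and -0.56 for Arc. For Neuron against DP the authors' deposited table lists -3.50 for Arc, -2.62 for Fosb, 2.93 for Egr3 and 2.13 for Junb.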

How the data were processed

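Poly-A RNA of sorted cells was counted in 9 libraries, each sequenced in a single-read and a paired-end run. The authors deposited whole-number counts per gene for each run. The submitters' processing notes name TopHat2 2.0.10, featureCounts 1.4.4, DESeq2 1.4.5 and the build mm9, with no role or order. Beside these, the authors deposited a size-factor-scaled signal for each library, their log2 fold change, its standard error and statistic as a score, and the authors' p-value, per the file headers. No source used here says if reads were counted by strand.

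Counts of both runs were added. edgeR 4.0.16 (R 4.3.3) was run with TMM scaling, filterByExpr and quasi-likelihood fits, using 9 libraries and their group, and Benjamini-Hochberg adjustment at 0.05. A log2 fold change has as SE its size over the square root of F. The test was tried on simulated data with the same spread for every feature and no shared deviation of library sets. That trial does not show how the test behaves for members that spread more widely. CPM is mean ± SD over 3 libraries (n = 3); levels between genes use exon length. Likeness used a pseudocount of 0.01 CPM, chosen after seeing the data. Symbols with several identifiers took the one with the most reads.

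Columns carry library numbers and no label's replicate number, so they were tied to groups. Libraries of 1 set of consecutive numbers deviated together from their group means: correlations across genes, which are not independent replicates, were 0.187 to 0.462 within sets. Between sets they were -0.427 to 0.051. Deviations from a group mean cancel within the group, so these correlations depend on each other. Replicates are pools of embryos from different litters, per the labels' protocols. The members and lists were chosen with earlier results of these data known. The rule named all members and, per list, up to 3 genes per direction with the largest fold past the threshold and 5 CPM, and the 5 genes most like Fos, Egr1 and Jun. The MEF2 and other motifs were chosen after seeing the data. Other settings were edgeR's RLE scaling, library totals, other filters, DESeq2 1.42.0, 2-group fits, each run alone, libraries left out and a block.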

Additional observations from a re-analysis of the deposited data

How the results depend on the processing

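Of the 30 log2 fold changes of members (10 genes in 3 comparisons), 22 kept their side of the threshold under every alternative that could be fitted, 8 changed it under at least 1, and 0 called values turned their direction. Those 8 were Arc and Egr1 in DP against PP, Egr1 in Neuron against DP, and Fos, Jund, Egr1, Ier2 and Nr4a1 in Neuron against PP. In Neuron against PP, 7 members were lower with library totals alone, where 4 were in the report, and 1 was higher with the filter of at least 1 CPM in 3 libraries, where 2 were. That filter left out Egr3, by its construction. Leaving out 1 library at a time, members called numbered 5 to 6 in DP against PP (3 to 4 higher, 2 to 3 lower), 8 to 9 in Neuron against DP (3 higher, 5 to 6 lower) and 6 to 8 in Neuron against PP (2 to 3 higher, 4 to 5 lower). Features called numbered 6199 to 8008, 11577 to 12710 and 13418 to 14392. Library numbers give no replicate number of a label. With the replicate block of consecutive library numbers, 9530 features differed in DP against PP, 6 members were called there, 9 in Neuron against DP and 8 in Neuron against PP, and the block changed no call other than those of Fos and Nr4a1 given in the report. Depth limits Egr3, with 5 to 11 reads per progenitor library.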
